A study of Oryza sativa with 18 samples.

Results

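The genes described here are the 59 of 39049 rice genes whose annotation, taken from the best Arabidopsis match, names the proteasome or its regulatory particle. They were measured by RNA sequencing in leaves at the tillering stage of the introgression line H471, its drought-tolerant donor parent P28 and its drought-sensitive recurrent parent HHZ, each as a well-watered control and after 1 and 3 days of drought. Water was withheld without any further agent, and soil water stood near 15% on day 1 and near 10% on day 3. H471 carries donor segments of P28 in an HHZ background and is 1 line, so any property of H471 is that of a single line. There were 18 libraries, with RNA of replicates pooled per the labels, and the authors' values combine the 2 libraries of a genotype and condition into 1 column, which leaves 9 columns. The values are FPKM, fragments scaled to transcript length and library size, so levels of different genes can be set side by side per length. A level of 1 column therefore has no error of its own, and the library depth behind it is not given in the file.

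The proteasome is the protease that degrades most short-lived and damaged proteins of the plant cell. Proteins marked with ubiquitin are held and unfolded by the regulatory particle, whose ATPase ring (RPT subunits) and non-ATPase subunits (RPN) cap a barrel-shaped core. The outer alpha rings of the core (PAA to PAG) form its gate, and the inner beta rings (PBA to PBG) hold the active sites. Plants use it in hormone, light and stress signalling, and in rice many subunits are encoded by more than 1 gene.

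By annotation, 13 of the 59 genes encode alpha subunits, 5 beta subunits, 11 ATPases and 16 non-ATPase subunits. A further 3 encode copies of UMP1, a chaperone of core assembly in yeast, 1 the activator PA200 and 1 a protein related to the mammalian inhibitor PI31. The other members are 5 subunits of the COP9 signalosome, the relative of the regulatory particle lid that takes the ubiquitin-like RUB off cullins, and 4 proteins with the PCI domain of lid subunits. Beta types PBA, PBB and PBF and the ATPase type RPT4 are not among the genes the annotation words find. Of the non-ATPase types they find only RPN1, RPN2, RPN5, RPN7, RPN10, RPN12 and RPN13 by name, so others such as RPN8 are missed. At least 1 FPKM in at least 1 column was reached by 57 members and by 20568 genes in all. The remaining 2 were LOC_Os06g07978, a PAC gene listed at 0 in every column, and LOC_Os10g05180, an RPN10 copy that reached at most 0.0818 FPKM. A mean of at least 5 FPKM was reached by 51 members.

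All differences are log2 of FPKM after 1 is added, which understates the change of weakly expressed genes. limma was fitted to the 9 columns with terms for genotype and condition, and a gene was called at a Benjamini-Hochberg adjusted p under 0.05 over the 20568 genes. Here each genotype serves as 1 replicate of a condition, and each condition as 1 replicate of a genotype. The genotypes are related, since H471 derives from HHZ and P28, so they are not independent replicates. SE and p thus reflect how far genotypes (for drought) or conditions (for genotype differences) vary, and they do not cover variation among plants. Values after ± are SE. Both drought days are set against the same control columns. Where a genotype is given 3 values, they are in the order control, day 1, day 3.

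Proteasome transcripts as a group were lower under drought in every genotype. The FPKM of the 59 genes summed to 3491, 2293 and 2601 in H471, to 3319, 2331 and 2578 in P28 and to 3806, 2323 and 2672 in HHZ. After 1 day the sum was at 65.7% (H471), 70.2% (P28) and 61.0% (HHZ) of the control, and after 3 days at 74.5%, 77.7% and 70.2% in the same order. As a share of all FPKM in a column, the members took 0.237% to 0.247% after 1 day and 0.280% to 0.316% after 3 days, against 0.407% to 0.452% in the controls, so neither drought day overlapped the controls.

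After 1 day, 41 of the 57 members fell and 3 rose, while 13 did not pass the test. Of all genes 30.8% were called lower and 27.4% higher. The median difference was -0.55 over the members and -0.02 over all genes. In 47 members the drought column lay below the control column in each of the 3 genotypes, and in 5 it lay above in each. The share of all genes below or above in each of the 3 was not computed. Calls for 32 of the 41 fallen members remained under every other fit at this threshold, including the loss of any 1 genotype.

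After 3 days the members were nearer to the control, with 35 lower and 5 higher and a median of -0.29, against -0.03 over all genes, of which 30.1% were lower and 27.0% higher. This count depends on the columns fitted, since 23 members were lower and 2 higher without the H471 columns, and 19 and 2 without those of HHZ. The 2 drought days shared 33 members with lower calls. Between the days, 17 members were higher after 3 days than after 1 day and 4 lower, with 25.3% of all genes higher and 24.4% lower. Without H471 these were 11 and 1 members, and without HHZ 10 and 3. Of the 41 members that fell after 1 day, 15 (36.6%) were higher on day 3 than on day 1, a share below the 43.7% of the 6336 genes of any kind that fell on day 1. Both contrasts use the day 1 columns.

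**Figure D1:**
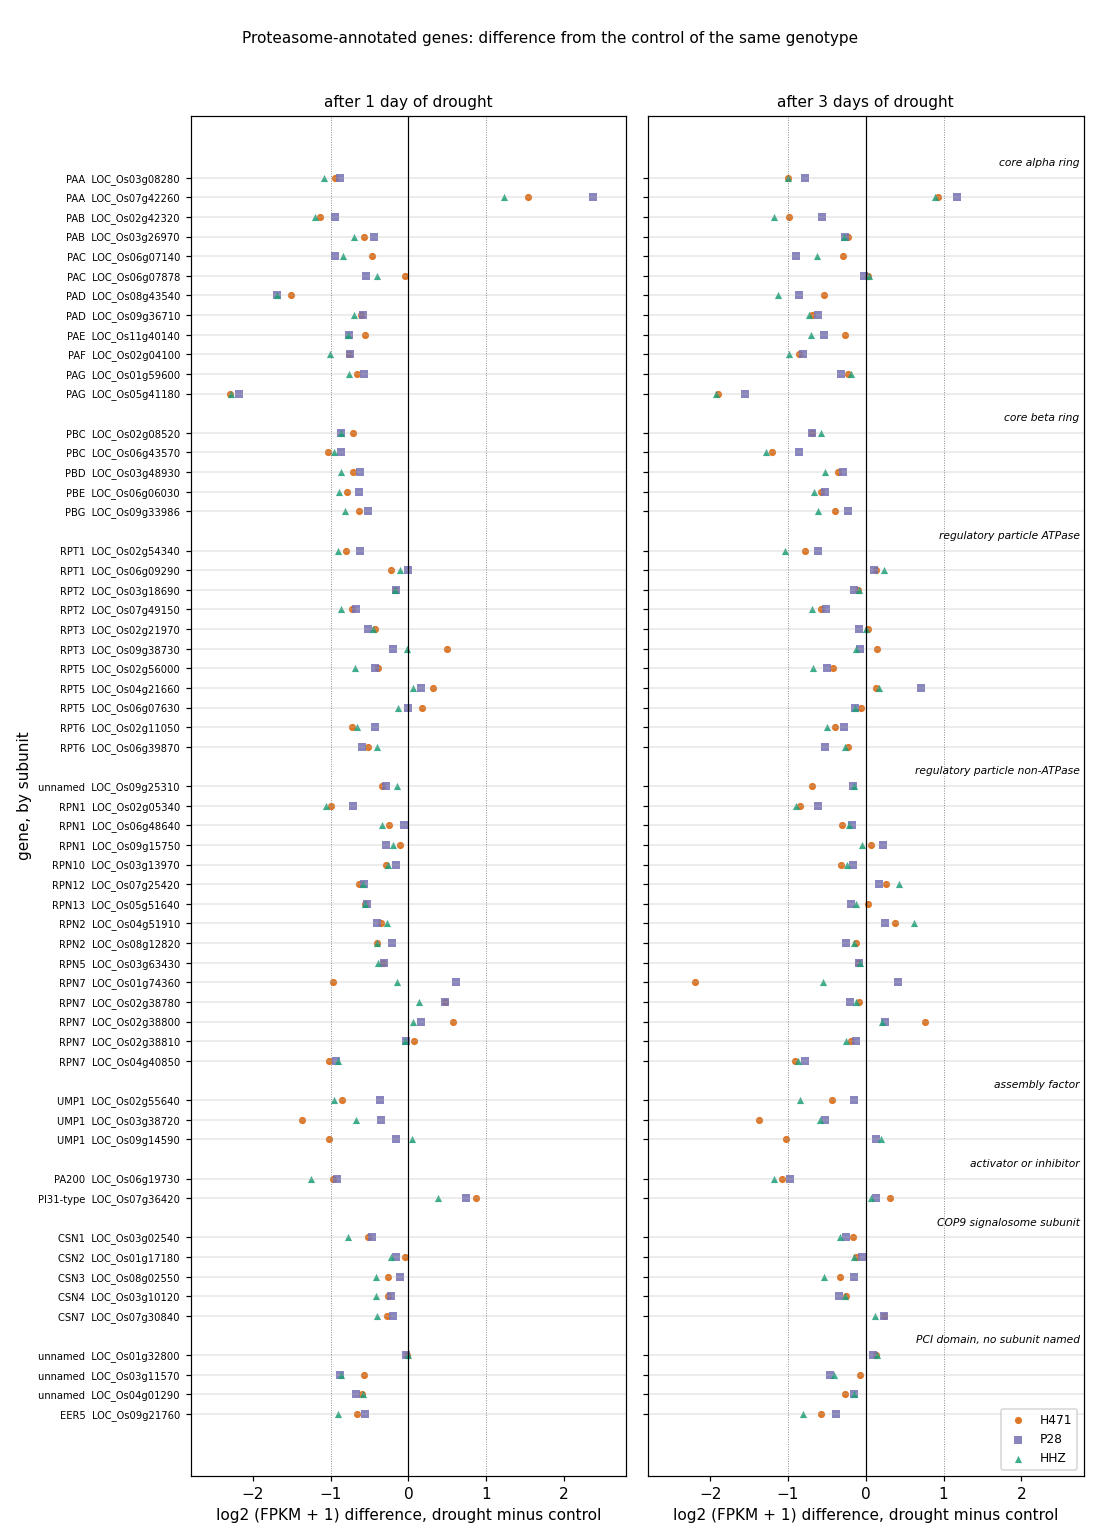
Differences of the 57 members with at least 1 FPKM in at least 1 column, drought minus control of the same genotype, on the log2 scale with 1 added to FPKM. Circles are H471, squares P28 and triangles HHZ, the left panel is 1 day and the right panel 3 days, dotted lines mark a difference of 1 in size, and genes are grouped by role. Most points lie left of 0 in both panels, and LOC_Os07g42260 (PAA) and LOC_Os05g41180 (PAG) stand farthest out among the alpha genes.

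The summed levels of core and regulatory particle lay at different distances below the control. Summed over genes, alpha subunits stood at 50.1% to 59.2% of the control after 1 day and beta subunits at 54.0% to 63.0%. The ATPases stood at 66.5% to 74.4% and the non-ATPase subunits at 72.5% to 78.3%. In each genotype the core sums were therefore a smaller part of their control than the regulatory particle sums on day 1, and the ranges of core and regulatory particle did not overlap. After 3 days the order was alpha (56.6% to 64.5%), beta (61.3% to 72.5%), ATPase (73.7% to 80.2%) and non-ATPase (86.0% to 91.3%). These are descriptions of summed levels, and the difference between classes was not tested. The sums hold only the types that the annotation words find, so missed types such as PBA, PBB, PBF and RPN8 could shift the order.

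**Figure D2:**
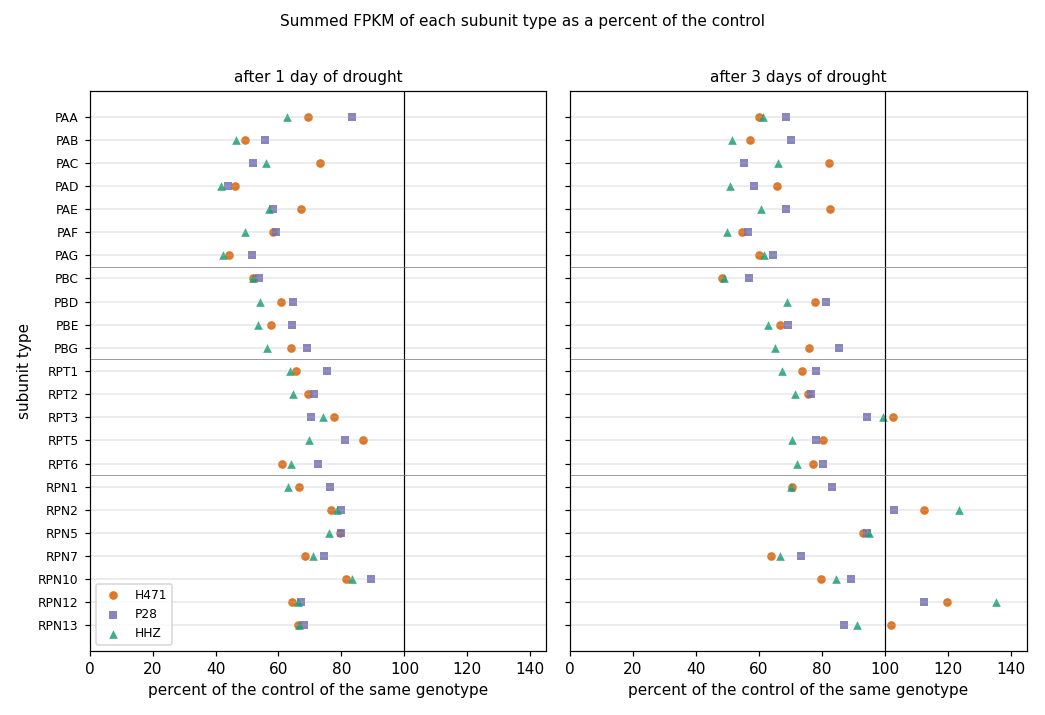
FPKM summed over the genes of each subunit type as a percent of the control of the same genotype, after 1 day (left) and 3 days (right) of drought. Circles are H471, squares P28 and triangles HHZ, lines separate alpha, beta, ATPase and non-ATPase types, and the line at 100 is the control. After 1 day every type lies below 100 in every genotype, and after 3 days RPN12 and RPN2 lie above it in all 3.

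Among alpha subunits, 10 of the 12 genes with at least 1 FPKM in a column fell after 1 day and 1 rose, with a median of -0.73, and the same counts held after 3 days. PAA is encoded by 2 genes that moved apart. LOC_Os03g08280 (PAA1), the most abundant alpha gene by mean FPKM, had 197, 102 and 98.0 FPKM in H471, 172, 92.6 and 99.8 in P28 and 210.5, 98.6 and 105 in HHZ. It fell after 1 day (-0.97 ± 0.08, adjusted p = 5.2e-05) and was also lower after 3 days (-0.92).

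LOC_Os07g42260 (PAA2), the other PAA copy, was the member with the largest increase. Its levels were 14.9, 45.1 and 29.3 FPKM in H471, 10.6, 59.3 and 25.1 in P28 and 18.6, 44.8 and 35.4 in HHZ. It rose after 1 day (1.71 ± 0.20, adjusted p = 0.00035) and was still above the control after 3 days (1.00 ± 0.20, adjusted p = 0.005), although lower than on day 1 (-0.72, adjusted p = 0.023, and 0.089 without H471). Drought and control columns did not overlap. Its response was the least uniform of the 51 members above 5 FPKM on average, since the 3 genotypes spanned a range of 1.15 on the log2 scale on day 1, with P28 the lowest in the control and the highest on day 1. PAA2 made up 30.6% to 39.1% of PAA FPKM after 1 day and 20.1% to 25.2% after 3 days, against 5.83% to 8.11% in the controls. After 1 day the sum of both copies was still below the control, at 69.5% (H471), 83.3% (P28) and 62.6% (HHZ) of it.

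The PAG pair, whose protein forms another position of the alpha ring, held the member with the largest decrease. LOC_Os05g41180 had 75.6, 14.6 and 19.5 FPKM in H471, 45.1, 9.19 and 14.7 in P28 and 75.3, 14.7 and 19.1 in HHZ. After 1 day it stood at 19.3% (H471), 20.4% (P28) and 19.6% (HHZ) of the control (-2.25 ± 0.09, adjusted p = 2.8e-06), and after 3 days at 25.8% (H471), 32.5% (P28) and 25.4% (HHZ) (-1.79 ± 0.09, adjusted p = 1.2e-05). Its difference was below -1 in each genotype on both days, and no drought column reached a control. Its PAG partner LOC_Os01g59600 fell by less on day 1 (-0.66 ± 0.08, adjusted p = 0.0003). The share of LOC_Os05g41180 in PAG FPKM was 13.01% to 19.1% after 1 day and 16.6% to 18.4% after 3 days, against 33.0% to 42.7% in the controls.

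PAD and PAB followed the more common pattern, in which the abundant copy moved most. LOC_Os08g43540 (PAD) had 87.3, 29.9 and 59.6 FPKM in H471, 81.7, 24.6 and 44.8 in P28 and 98.3, 29.7 and 44.6 in HHZ. It fell after 1 day (-1.63 ± 0.11, adjusted p = 2.5e-05), when it was the lower of the PAD copies in every genotype although it was the higher in every control, and it rose again by day 3 (0.79, adjusted p = 0.001). The other PAD copy, LOC_Os09g36710, fell by less on day 1 (-0.63) and no change was called between the days (-0.05, adjusted p = 0.55).

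LOC_Os02g42320, the abundant PAB copy, was measured at 191, 86.3 and 96.1 FPKM in H471, 157, 80.8 and 105 in P28 and 203, 87.6 and 89.1 in HHZ. The decrease was called on day 1 (-1.10 ± 0.11, adjusted p = 0.00019) and on day 3 (-0.91). LOC_Os03g26970, the lesser PAB copy, had 47.7, 31.7 and 40.7 FPKM in H471, 37.7, 27.5 and 31.3 in P28 and 48.8, 29.6 and 40.0 in HHZ. Its decrease on day 1 was smaller (-0.57 ± 0.07, adjusted p = 0.00055).

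Of the other types, PAF (LOC_Os02g04100) stood at 58.3% (H471), 59.1% (P28) and 49.3% (HHZ) of the control after 1 day and PAE (LOC_Os11g40140) at 67.0% (H471), 58.4% (P28) and 57.1% (HHZ), and both fell on each day. In PAC, LOC_Os06g07140 carried nearly all FPKM and fell (-0.75), while LOC_Os06g07878, at 2.46 to 4.04 FPKM, did not pass the test (-0.33, adjusted p = 0.067). Because the authors' processing corrects for reads that match several places, the split between near-identical copies is an estimate.

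All 5 beta genes fell on both days, with medians of -0.77 and -0.59. LOC_Os06g06030 (PBE), the subunit type with the chymotrypsin-like active site, was the most abundant beta gene at 159, 91.8 and 106 FPKM in H471, 157, 101 and 109 in P28 and 173, 92.9 and 109 in HHZ. The gene fell on day 1 (-0.77 ± 0.07, adjusted p = 0.00012) and on day 3 (-0.59). Its drought columns, from 91.8 to 109, all lay below the lowest control, 157.

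LOC_Os06g43570, the main copy of the structural subunit PBC, had 89.0, 42.8 and 37.9 FPKM in H471, 77.6, 41.9 and 42.3 in P28 and 92.5, 47.0 and 37.6 in HHZ. It had the largest decrease among beta genes, after 1 day (-0.96 ± 0.09, adjusted p = 0.00015) and after 3 days (-1.12). LOC_Os02g08520, the second PBC copy, had 39.5, 23.8 and 24.2 FPKM in H471, 41.5, 22.2 and 25.3 in P28 and 43.7, 23.5 and 29.1 in HHZ and also fell (-0.82 ± 0.08, adjusted p = 0.00011).

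LOC_Os03g48930, a PBD gene for another structural subunit, had 108, 65.6 and 83.9 FPKM in H471, 91.7, 59.2 and 74.6 in P28 and 116, 63.1 and 80.2 in HHZ. PBD was lower on day 1 (-0.73 ± 0.07, adjusted p = 0.00016) and was higher on day 3 than on day 1 (0.34). LOC_Os09g33986 (PBG) had 125, 80.3 and 95.2 FPKM in H471, 121, 83.6 and 103 in P28 and 141, 79.3 and 91.4 in HHZ and its decrease on day 1 was the smallest of the 5 (-0.66 ± 0.09, adjusted p = 0.00057).

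The regulatory particle ATPases unfold the substrate and open the gate of the core. On day 1, 7 of 11 fell and none rose in the test, with a median of -0.47, and on day 3, 5 fell and none rose, with a median of -0.11. Without HHZ the day 3 count was 3, since neither RPT6 gene was then called. RPT1, RPT2, RPT3 and RPT5 each had an abundant copy that fell beside a copy that moved little or did not pass the test.

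LOC_Os02g54340 (RPT1) had 113, 64.2 and 65.1 FPKM in H471, 108, 70.0 and 70.4 in P28 and 137, 72.6 and 66.1 in HHZ, and it fell most among the ATPases (-0.78 ± 0.09, adjusted p = 0.00033). The other RPT1 copy, LOC_Os06g09290, did not pass the test on either day (-0.11 and 0.15), with 44.2 to 48.4 FPKM after 1 day and 48.7 to 51.8 in the controls. LOC_Os07g49150 (RPT2) had 122, 73.3 and 81.9 FPKM in H471, 110.1, 68.5 and 76.7 in P28 and 135, 73.1 and 83.3 in HHZ and fell on both days (-0.76 ± 0.07, adjusted p = 9e-05 on day 1).

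The second RPT2 copy, LOC_Os03g18690, was called lower on day 1 (-0.17, adjusted p = 0.039), a call that was lost when any 1 genotype was left out. LOC_Os02g11050 (RPT6) had 124, 74.4 and 94.4 FPKM in H471, 102, 75.6 and 84.4 in P28 and 137, 85.7 and 96.7 in HHZ. It fell after 1 day (-0.61 ± 0.08, adjusted p = 0.00058), at 60.0% (H471), 73.8% (P28) and 62.8% (HHZ) of the control.

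Among the ATPases the changes closest to or above 0 belonged to the lesser copies of a type. LOC_Os09g38730, the minor RPT3 gene, had 4.82, 7.21 and 5.42 FPKM in H471, 5.12, 4.32 and 4.81 in P28 and 5.10, 5.04 and 4.59 in HHZ, and its difference of 0.09 did not pass the test (adjusted p = 0.61). LOC_Os06g07630, an RPT5 copy, had 35.5, 40.3 and 33.9 FPKM in H471, 33.0, 32.8 and 30.0 in P28 and 39.3, 35.6 and 35.8 in HHZ and likewise did not pass (0.01 ± 0.08, adjusted p = 0.92), whereas the abundant RPT5 gene LOC_Os02g56000 fell (-0.50). The main RPT3 gene LOC_Os02g21970 fell on day 1 (-0.47 ± 0.06, adjusted p = 0.00054), rose between the days (0.45) and on day 3 stood at 102% (H471), 94.3% (P28) and 99.9% (HHZ) of the control.

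Non-ATPase subunits moved in both directions. After 1 day 9 of 15 fell and 1 rose, with a median of -0.26, but without H471 these counts were 5 and 0 and without HHZ 6 and 0. After 3 days 6 were lower and 3 higher, with a median of -0.18, and 2 were lower and 1 higher without H471 and likewise without HHZ. The day 3 shares, 40.0% lower and 20.0% higher, were near those of all genes. LOC_Os03g13970 (RPN10), which binds ubiquitin chains, had 98.9, 80.4 and 78.9 FPKM in H471, 128, 114 and 114 in P28 and 107, 88.9 and 90.0 in HHZ. Its decrease was small on day 1 (-0.24 ± 0.06, adjusted p = 0.016), and the call was lost without H471 and without HHZ. LOC_Os03g63430 (RPN5), a lid subunit with a PCI domain, had 104, 82.7 and 96.8 FPKM in H471, 98.2, 78.5 and 92.7 in P28 and 109, 83.3 and 104 in HHZ. RPN5 fell on day 1 (-0.34 ± 0.06, adjusted p = 0.0023) and did not pass the test on day 3 (-0.09).

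LOC_Os02g05340, the main copy of RPN1, which docks ubiquitin carriers, had 84.7, 42.0 and 46.6 FPKM in H471, 67.8, 41.1 and 44.0 in P28 and 89.4, 42.3 and 47.5 in HHZ. It fell on day 1 (-0.92 ± 0.08, adjusted p = 0.00011), and the RPN1 copies LOC_Os06g48640 and LOC_Os09g15750 had differences of -0.22 and -0.20, of which the first was called (adjusted p = 0.045, lost without H471 and without HHZ) and the second was not (adjusted p = 0.088).

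RPN7, a lid subunit, has 5 annotated genes. LOC_Os04g40850 had 68.6, 33.3 and 35.9 FPKM in H471, 57.6, 29.6 and 32.9 in P28 and 66.9, 35.3 and 36.2 in HHZ, and fell on both days (-0.95 ± 0.06, adjusted p = 2.4e-05 on day 1). The other RPN7 genes had lower levels. LOC_Os02g38810 had 25.0, 26.2 and 21.8 FPKM in H471, 27.3, 26.8 and 24.8 in P28 and 29.3, 28.4 and 24.3 in HHZ, with no call on day 1 (adjusted p = 1.00) and a lower call on day 3 (-0.19, adjusted p = 0.044) that was lost when any 1 genotype was left out.

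LOC_Os02g38800 had 3.91, 6.31 and 7.32 FPKM in H471, 5.36, 6.13 and 6.57 in P28 and 6.44, 6.73 and 7.58 in HHZ and was called higher on day 3 (0.41 ± 0.13, adjusted p = 0.036), a call lost when any 1 genotype was left out. LOC_Os02g38780, the only non-ATPase gene called higher on day 1 (0.36, adjusted p = 0.038), had 4.01 to 5.06 FPKM on that day, against 2.90 to 3.55 in the controls. Its call was likewise lost when any 1 genotype was left out. These 3 neighbouring loci have like annotations, so reads may be split among them. LOC_Os01g74360 varied between 0.618 and 6.44 FPKM with no call.

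**Figure D3:**
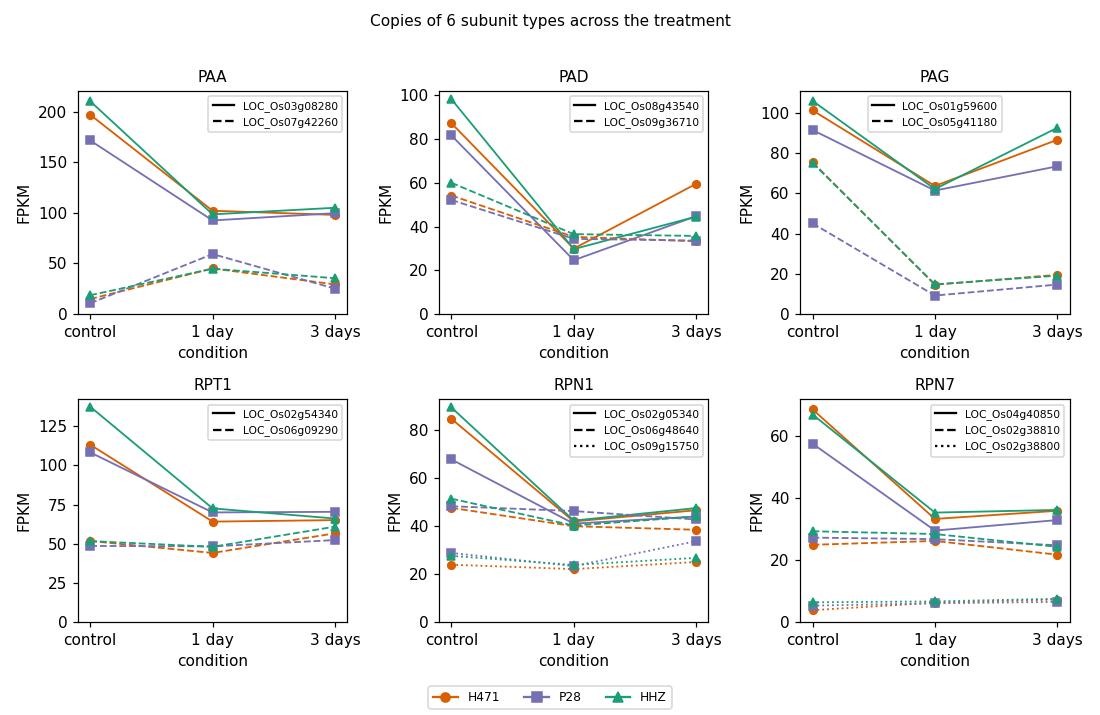
FPKM across the 3 conditions for the gene copies of 6 subunit types, on linear axes that start at 0. Colours and markers stand for H471 (circles), P28 (squares) and HHZ (triangles), and line styles for the copies. In PAA, PAD, RPT1, RPN1 and RPN7 the solid line of the abundant copy drops most on day 1, while in PAG the less abundant LOC_Os05g41180 does.

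The difference between copies ran the same way in most subunit types among the members. Of the 13 types with at least 2 copies at a mean of 5 FPKM or more, the copy with the highest mean FPKM also had the lowest fitted difference after 1 day in 12, and PAG was the exception. In RPN2 the copies differed by under 0.01, and in RPT6 (-0.61 and -0.51) and PBC (-0.96 and -0.82) by little. Among genes of subunit families that the annotation words missed, it ran the same way in the EMB2719 pair (LOC_Os08g43640, 37.5 FPKM on average, -0.89, and LOC_Os09g37000, 23.1 FPKM, -0.34). It ran the other way in PBA1 (LOC_Os02g53060, 57.0 FPKM on average, -0.67, and LOC_Os06g04800, 29.9 FPKM, -0.82) and in PBF1, whose minor copy fell by more. This is a count over members with no test, and the copies of a type are not independent of each other.

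A few members were called lower than the control on day 1 and stood above it on day 3. LOC_Os07g25420 (RPN12, a lid subunit) had 79.4, 51.0 and 95.1 FPKM in H471, 76.8, 51.5 and 86.4 in P28 and 79.3, 52.5 and 107 in HHZ. RPN12 fell on day 1 (-0.59 ± 0.08, adjusted p = 0.00053) and was above the control on day 3 (0.29 ± 0.08, adjusted p = 0.016), the largest difference between the days of any member above 5 FPKM (0.88, adjusted p = 0.00011). Drought columns lay below all controls on day 1 and above all controls on day 3, although the day 3 call was lost without H471 and without HHZ.

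LOC_Os04g51910 (RPN2, a scaffold of the base) had 47.97, 37.4 and 62.6 FPKM in H471, 46.6, 34.8 and 55.7 in P28 and 51.0, 41.8 and 78.9 in HHZ. It fell on day 1 (-0.35 ± 0.08, adjusted p = 0.0093, lost without H471 at an adjusted p of 0.066) and was above the control on day 3 (0.42 ± 0.08, adjusted p = 0.0045). The other RPN2 copy, LOC_Os08g12820, was lower on day 1 (-0.34, a call lost without H471 and without HHZ) and did not pass the test on day 3 (-0.18, adjusted p = 0.099). RPN13 (LOC_Os05g51640), a further ubiquitin receptor, stood at 66.3% (H471), 68.0% (P28) and 66.5% (HHZ) of the control after 1 day and at 102% (H471), 87.1% (P28) and 91.2% (HHZ) after 3 days.

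**Figure D4:**
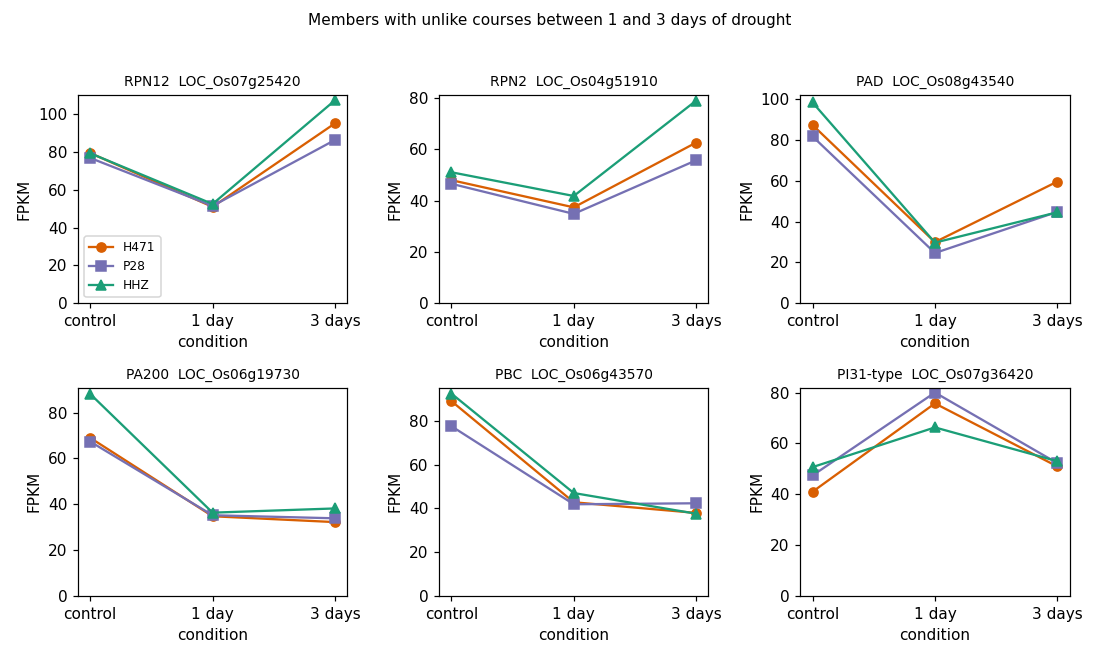
FPKM of 6 members across the 3 conditions, for H471 (circles), P28 (squares) and HHZ (triangles), on linear axes that start at 0. RPN12 and RPN2 drop and then pass the control, PAD regains part of its level, PA200 and PBC stay low, and the gene related to PI31 is highest on day 1.

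Among regulators, PA200 (LOC_Os06g19730), which caps the core in place of the regulatory particle, had 69.0, 34.8 and 32.2 FPKM in H471, 67.4, 35.2 and 33.9 in P28 and 88.2, 36.3 and 38.2 in HHZ. It fell on both days (-1.05 ± 0.08, adjusted p = 5.2e-05 on day 1 and -1.08 on day 3). LOC_Os07g36420, related to the inhibitor PI31, had 41.0, 75.8 and 51.0 FPKM in H471, 47.4, 80.1 and 52.3 in P28 and 50.7, 66.3 and 53.0 in HHZ. It rose on day 1 (0.66 ± 0.10, adjusted p = 0.0011), with every day 1 column above every control, and on day 3 it did not pass the test (0.17, adjusted p = 0.19).

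The main UMP1 gene, LOC_Os02g55640, had 164, 90.4 and 122 FPKM in H471, 119, 91.7 and 107 in P28 and 185, 94.9 and 103 in HHZ. It fell on day 1 (-0.73 ± 0.14, adjusted p = 0.0036), to 55.1% (H471), 77.3% (P28) and 51.3% (HHZ) of the control, and on day 3 its response spread more between genotypes than that of any other member above 5 FPKM (a range of 0.69), with HHZ farthest below its control. Its day 3 call (-0.47, adjusted p = 0.023) was lost without H471 and without HHZ.

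Of the COP9 signalosome subunits, 4 of 5 fell on day 1, with a median of -0.30. LOC_Os03g02540 (CSN1) had 39.6, 27.2 and 35.3 FPKM in H471, 41.8, 29.9 and 35.0 in P28 and 44.2, 25.4 and 34.9 in HHZ and moved most (-0.59 ± 0.08, adjusted p = 0.0007). LOC_Os03g10120 (CSN4) had 33.3, 27.4 and 27.7 FPKM in H471, 39.4, 33.4 and 30.7 in P28 and 38.7, 28.7 and 32.1 in HHZ and fell by less (-0.31 ± 0.07, adjusted p = 0.01). LOC_Os08g02550 (CSN3) had 25.6, 21.1 and 20.1 FPKM in H471, 25.2, 23.2 and 22.5 in P28 and 29.7, 22.1 and 20.2 in HHZ, with a difference of -0.26 (adjusted p = 0.037).

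LOC_Os01g17180 (CSN2) had 27.1, 26.1 and 24.7 FPKM in H471, 28.0, 24.8 and 27.0 in P28 and 30.8, 26.2 and 27.6 in HHZ and did not pass the test (-0.15, adjusted p = 0.12). CSN7 (LOC_Os07g30840) fell on day 1 (-0.30) and was called higher than the control on day 3 (0.19, adjusted p = 0.047). The day 3 call of CSN7 was lost when any 1 genotype was left out, and without H471 and without HHZ the day 1 calls of CSN3, CSN4 and CSN7 were lost.

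Of the 4 further PCI domain genes, 3 fell on day 1. LOC_Os03g11570 had 43.1, 28.8 and 40.8 FPKM in H471, 44.7, 23.8 and 32.2 in P28 and 49.9, 26.8 and 37.3 in HHZ and fell most (-0.77 ± 0.09, adjusted p = 0.00036). LOC_Os04g01290, the most abundant, had 63.8, 41.9 and 52.9 FPKM in H471, 56.3, 34.7 and 50.6 in P28 and 59.3, 39.2 and 53.1 in HHZ and also fell (-0.62 ± 0.07, adjusted p = 0.00022).

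LOC_Os09g21760 (EER5, named for the ethylene response of its Arabidopsis match) had 16.9, 10.3 and 11.0 FPKM in H471, 16.5, 10.8 and 12.5 in P28 and 18.1, 9.14 and 9.88 in HHZ and fell (-0.71 ± 0.10, adjusted p = 0.00084). LOC_Os01g32800 had 20.5, 20.1 and 22.5 FPKM in H471, 19.0, 18.5 and 20.4 in P28 and 21.4, 21.2 and 23.7 in HHZ, and its difference of -0.02 did not pass the test (adjusted p = 0.77). Its levels on day 1 were within 1 FPKM of the control in each genotype.

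Within single genotypes the changes were mostly moderate. A log2 difference of at least 1 after 1 day was reached downward by 7 members in H471, 2 in P28 and 7 in HHZ, and upward by 1 in each. Of all genes 13.4%, 14.9% and 13.1% passed downward in the same order, and 13.2%, 12.2% and 12.5% upward. After 3 days 7, 1 and 6 members passed downward, with 13.6%, 13.5% and 13.3% of all genes. The share of members past this size was thus not above the share of all genes. Yet 49, 51 and 51 of the 57 (86.0%, 89.5% and 89.5%) had a lower value on day 1, with 50.8%, 50.3% and 50.2% of all genes. For the 51 members at a mean of 5 FPKM or more, the median range between genotypes was 0.21 on day 1 and 0.22 on day 3, with 0.31 and 0.33 over the 13631 genes of that level.

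Between genotypes few members were called, in shares near those of all genes. In H471 against HHZ, limma called 0 of 57 members at an adjusted p under 0.05, with 0.224% of all genes called. At an unadjusted p under 0.05 there were 4 members, all lower in H471, and the share of all genes at that level was not computed. The 4 were PA200, LOC_Os02g38810 and the minor UMP1 genes LOC_Os03g38720 and LOC_Os09g14590, which were near the limit of detection. Without the control columns 1 member was called, LOC_Os09g14590. In P28 against HHZ 3 members were called (6.64% of all genes), and in H471 against P28 5 members (6.72%). Of the members, 3.5% were higher and 1.8% lower in P28 against HHZ, with 3.6% and 3.0% of all genes. In H471 against P28, 1.8% were higher and 7.0% lower, with 3.0% and 3.7% of all genes. The counts of 3 and 5 were 1 and 1 without the 1-day columns. The members' median was -0.12 in P28 against HHZ and -0.06 in H471 against HHZ, with -0.01 over all genes in both. The study itself tested pairs of samples with Cuffdiff. Its gene lists contain LOC_Os02g55640, LOC_Os05g41180, LOC_Os11g40140 and LOC_Os09g14590. Those lists were not compared with the calls given here.

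PAE (LOC_Os11g40140), the only gene of its alpha subunit type, differed most. It had 39.2, 26.3 and 32.4 FPKM in H471, 118, 69.0 and 80.9 in P28 and 39.8, 22.7 and 24.1 in HHZ. It was higher in P28 than in HHZ (1.60 ± 0.09, adjusted p = 0.00012) and lower in H471 than in P28 (-1.41 ± 0.09, adjusted p = 0.00022), and both calls remained under every alternative. Every P28 column lay above every column of the other genotypes. H471 minus HHZ came to 0.20 (adjusted p = 0.78).

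RPN10 (LOC_Os03g13970), whose levels are given above, was higher in P28 than in HHZ (0.32 ± 0.06, adjusted p = 0.033) and lower in H471 than in P28 (-0.46 ± 0.06, adjusted p = 0.0071). Its P28 columns, from 114 to 128 FPKM, lay above all columns of H471 and HHZ, from 78.9 to 107. The PAG gene LOC_Os05g41180 was lower in P28 than in HHZ (-0.57 ± 0.09, adjusted p = 0.012) and higher in H471 than in P28 (0.58 ± 0.09, adjusted p = 0.012), with the P28 column lowest in each condition. Both RPN10 calls were lost without the 1-day columns and without the 3-day columns, that against HHZ also without the control columns and without limma's trend, and those of LOC_Os05g41180 without the 1-day and without the control columns.

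The minor UMP1 genes were near the limit of detection. LOC_Os03g38720 had 1.59, 0 and 0 FPKM in H471, 2.87, 2.03 and 1.68 in P28 and 2.56, 1.23 and 1.36 in HHZ, and LOC_Os09g14590 had 1.04, 0 and 0 FPKM in H471, 1.84, 1.54 and 2.12 in P28 and 2.01, 2.11 and 2.44 in HHZ. Both are listed at 0 in H471 on the drought days. They were lower in H471 than in P28 (-1.20 ± 0.22, adjusted p = 0.021 and -1.16 ± 0.26, adjusted p = 0.047). Both calls were lost with 0.1 added in place of 1 and without the 1-day or the 3-day columns. That of LOC_Os09g14590 was also lost with 5 added, without limma's trend and with no filter on low values. An FPKM of 0 can be a failed estimate, and since the copies are alike in annotation, their split from the main gene was not tested.

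**Figure D5:**
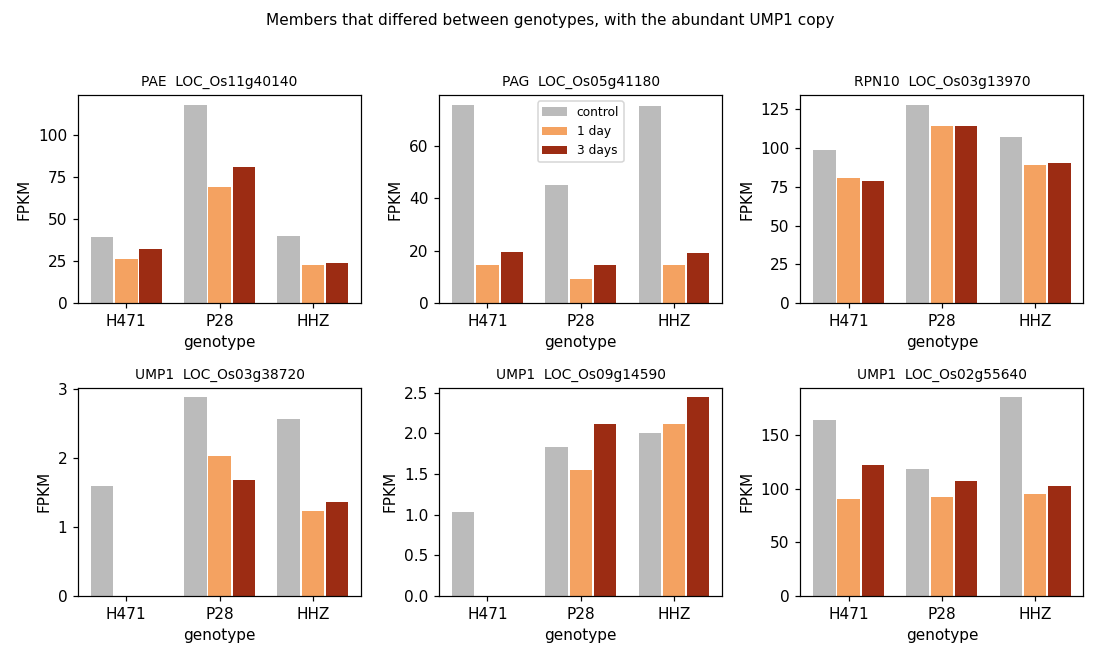
FPKM of 5 members that were called between genotypes and of the main UMP1 gene, for H471, P28 and HHZ, with bars for the control (grey), 1 day (light) and 3 days (dark) of drought, on linear axes that start at 0. PAE is highest in P28 in every condition, and bars of LOC_Os03g38720 and LOC_Os09g14590 are absent in H471 under drought because the values are 0.

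By locus number, 9 members lie between the outermost listed genes of a donor segment in H471, as do 2065 of the 20568 genes. None of the 9 was called between H471 and HHZ. Only 0.224% of all genes were called in that contrast, so the lack of a call among 9 genes does not set them apart. PAE is among the 9 members, yet its H471 levels of 26.3 to 39.2 FPKM were near those of HHZ (22.7 to 39.8) and below those of P28 (69.0 to 118). The segment limits rest on genes listed by the study and not on marker positions used here, so membership at an edge is uncertain.

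Most genes of subunit families that the annotation words missed were also lower. Of 13 such genes, found by family words, 10 fell on day 1 (76.9%, and 30.8% of all genes) and none rose, with a median of -0.64. On day 3, 10 were lower (76.9%) and 3 higher (23.1%), against 30.1% and 27.0% of all genes. Not all are named as proteasome subunits. LOC_Os04g46370, LOC_Os04g58600 and LOC_Os05g46490, which were not called on day 1, carry only a family name, as do LOC_Os01g16190 and LOC_Os05g30800, which fell. The abundant copy of PBF1, LOC_Os09g32800, had 75.4, 77.8 and 77.5 FPKM after 1 day in H471, P28 and HHZ, against 112, 112 and 122 FPKM in their controls (-0.57 ± 0.06, adjusted p = 0.00023). Its minor copy, LOC_Os08g41730, stood at 3.34, 4.84 and 5.74 FPKM after 1 day in H471, P28 and HHZ, against 32.3, 23.6 and 40.1 FPKM in their controls (-2.54 ± 0.21, adjusted p = 6.2e-05). The beta genes with the other active sites, PBA1 (LOC_Os02g53060, -0.67) and PBB1 (LOC_Os05g09490, -0.67), and the lid subunit RPN8A (LOC_Os04g56646, -0.64) also fell. LOC_Os05g46490, annotated as a Mov34 family protein with no subunit named, rose on day 3 (1.10 ± 0.07, adjusted p = 3.8e-05).

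Counts for the pathway before the proteasome are read against all genes, of which 27.4% were higher and 30.8% lower on day 1. Of 20 genes with ubiquitin words in their annotation, 5 rose (25.0%) and 8 fell (40.0%) on day 1. They include genes for RUB and for the ubiquitin carrier DSK2 (LOC_Os03g03920, 0.59, and LOC_Os10g39620, -0.36). Of 28 genes for ubiquitin activation and conjugation 6 rose (21.4%) and 11 fell (39.3%). Without HHZ the counts of these lists were 3 and 7 of 18 and 4 and 5 of 27. Of 62 deubiquitinases, which take ubiquitin off, 9 rose (14.5%) and 15 fell (24.2%), both below the shares of all genes, with a median of -0.01. Among 14 other carriers and unfolding factors 1 rose (7.1%) and 6 fell (42.9%), with a median of -0.19. The unfoldase CDC48 (LOC_Os03g05730, -1.15) and the ubiquitin carrier RAD23C (LOC_Os06g15360, -0.95) were among those that fell, and were picked after their values were seen. Of 4 COP9 signalosome genes outside the annotation words, 3 fell, and 1 without HHZ. Genes with heat shock words in their annotation went the other way on day 1, with 69 of 133 higher (51.9%) and 23 lower (17.3%) and a median of 0.31. Many such proteins are chaperones, but the words can also match heat shock transcription factors. On day 3, 34 were higher (25.6%) and 53 lower (39.8%), with a median of -0.13, against 27.0% and 30.1% of all genes.

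The columns also differed in ways beside the members. Summed FPKM of 12 light-harvesting genes was 29372 to 32234 after 1 day, against 6809 to 7640 in the controls. LOC_Os01g74020, the match to the clock gene LUX, stood at 1.07 to 1.59 FPKM after 1 day and at 84.0 to 102 after 3 days, against 493 to 560 in the controls. The hour of harvest is not given in the sources used here, so drought and time of day cannot be told apart on either day. Rubisco small chain genes summed to 419 to 976 FPKM after 3 days, against 5552 to 7359 in the controls. The 3 secondary wall cellulose synthase genes (CESA4, CESA7 and CESA8), markers of vascular tissue, summed to 21.3 to 43.8 FPKM after 1 day and 28.1 to 42.0 after 3 days, against 1.99 to 6.58 in the controls, in every genotype above its control. The part of these shifts in the members' differences was not tested. High light-harvesting and photosystem transcripts match the leaf label, and the 2 cyclin B genes of dividing cells summed to at most 0.178 FPKM. Column scaling was left as deposited, and median-ratio factors lay between -0.02 and 0.03 on the log2 scale. In bulk leaf RNA, fewer cells of a type and less RNA per cell cannot be told apart.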

How the data were processed

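Per the labels and the methods, leaf RNA pooled over replicates and freed of ribosomal RNA gave paired-end reads, and the authors mapped cleaned reads to the MSU rice genome with TopHat. The authors then computed FPKM with Cufflinks, with bias and multi-read correction. Versions of both tools are not given in the sources. The deposited table holds 1 FPKM column per genotype and condition, in which the 2 libraries are pooled. The number of reads behind a value is therefore unknown, and its precision could not be given.

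Members were found by annotation words and given roles from the annotation text and symbols. The members, roles and lists were chosen with earlier results of these data known. Genes that reached 1 FPKM in any of the 9 columns were kept, 1 was added, and log2 values were fitted with limma 3.58.1 in R 4.3.3, with a trend and terms for genotype and condition (4 residual degrees of freedom). Adjusted p-values are Benjamini-Hochberg values over all kept genes. The fit was also run on simulated data with independent noise, few changed genes and no genotype effect, which cannot show that the calls in these data are sound. Python 3.11.15, numpy 2.4.6, pandas 2.3.3 and matplotlib 3.10.9 did the rest.

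Values in all 9 columns are given for 38 members: in each role the most abundant and, at a mean of at least 5 FPKM, those with the largest and smallest fitted 1-day difference, the 3 with the largest difference between days, those called between genotypes, and those that the study's gene lists contain. Members outside this rule are given in part, and were chosen after their values were seen. Alternatives changed the value added (0.1 or 5), the filter, the scaling, the trend, the p threshold (0.01), the size rule and the columns fitted. No gene of the reference table matched the locus IDs, so no positions or sequences are given.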

Additional observations from a re-analysis of the deposited data

How the results depend on the processing

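No paired analysis was possible because both libraries of a genotype and condition are pooled in 1 column, so no replicate number reaches the values. The count of members called after 1 day, 44, moved by less than 1.5 times under every alternative, and so did the copy count of 12 of 13 types, tested with 0.1 and 5 added and without each genotype (alternatives chosen after seeing the data). After 3 days the 40 members called became 25 without H471, 21 without HHZ and 23 at an adjusted p threshold of 0.01. The 21 between the days became 12, 13 and 12 under these settings. H471 against HHZ gave 0, and 1 without the control columns. P28 against HHZ gave 3, and 1 without the 1-day columns, without the control columns or at 0.01. H471 against P28 gave 5, and 3 with 0.1 added, with a mean of at least 5 FPKM or with core and regulatory particle genes only, 2 without the 3-day columns or at 0.01, and 1 without the 1-day columns. Under a ratio of at least 1.5 in place of a log2 difference of 1, members past the size rule numbered 27 and 17 (1 and 3 days) in H471, 23 and 14 in P28 and 29 and 22 in HHZ, in place of 8 and 7, 3 and 2, and 8 and 6. With 5 added they were 4 and 3 in H471 and 1 in P28 after 3 days. Fits without a genotype or condition rest on 6 columns with 2 residual degrees of freedom. Among named members called with all 9 columns, none of the 752 values under alternatives changed sign, 661 stayed past the threshold and 91 did not. Named members without a call are not in this tally. The cause of the lost calls was not tested.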
